A study of Mus musculus with 13 samples.

Results

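The suprabasal keratins described here are Krt4 and Krt13 of the wet mucosa, Krt1 and Krt10 of the epidermis, and Krt2, Krt76, Krt78 and Krt24, which mark particular suprabasal layers or sites. The rule lists them by name and sets no threshold on a measured value, though earlier results of these data were known when it was written. They are 8 of the 56085 genes in the count table and 8 of its 54 keratin genes. All 8 were found by Ensembl identifier. Their estimated counts, the number of reads assigned to a gene by its transcripts, were followed in 13 mouse NUT carcinoma (mNC) tumors grouped by tissue and Sox2 genotype.

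Keratins are the intermediate filament proteins of epithelial cells, and each filament is built from a type I and a type II keratin. In stratified epithelium, dividing basal cells make Krt5 and Krt14. Cells that leave the basal layer switch to Krt4 and Krt13 in the lining of the mouth and esophagus, or to Krt1 and Krt10 in the epidermis. Krt2 is made later, in upper epidermal layers of sites such as the ear, tail and sole, and Krt76 in masticatory epithelium such as the palate. Krt78 is a type II keratin of suprabasal cells, and Krt24 is a type I keratin with restricted expression. NUT carcinoma is a poorly differentiated squamous carcinoma, and patches of abrupt keratinization are part of its histology. Krt4, Krt1, Krt2, Krt76 and Krt78 are type II, and Krt13, Krt10 and Krt24 are type I.

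All tumors came from mice with the NCT (NUT carcinoma translocator) allele, in which Cre starts tumors from rare cells. The oral WT tumors (n = 4) carried KRT14-Cre; NCT+/-, and the pancreatic WT tumors (n = 4) Pdx1-Cre; NCT+/-. The pancreatic KO tumors (n = 3) had Pdx1-Cre, NCT+/- and floxed Sox2, the pluripotency and basal progenitor factor. The oral KO tumors (n = 2) had NCT+/- and Sox2fl/fl, and their labels read KRT4Cre where the study's methods give KRT14-Cre for the oral model. If the oral KO label holds, Cre driver and genotype cannot be told apart between oral WT and KO tumors, or in the interaction of tissue and genotype. KRT14-Cre acts in the basal cells of mucosa, skin and salivary gland. The lining of the mouth makes Krt4 and Krt13, whereas Pdx1-Cre acts in the pancreas, a simple epithelium that does not make them. The start of a tumor by Cre is sporadic, and a tumor may descend from few cells. No age was used here. The labels number the tumors without naming the mice, and the p-values measure the spread between these tumors.

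Total counts were 29394258 to 40420228 in the oral WT, 11735315 and 20432164 in the oral KO, 40964533 to 46134830 in the pancreatic WT and 89562790 to 120482829 in the pancreatic KO tumors. Sox2 had 410 to 680 counts in oral WT, 0 and 1 in oral KO, 1111 to 1487 in pancreatic WT and 0 to 2 in pancreatic KO tumors. In oral KO replicate 1, protein-coding genes took 59.5% of the counts, against 84.5% to 91.7% elsewhere. The summed level of 20 skeletal muscle genes was 6191 and 3498 CPM (counts scaled to a common library size) in the oral KO tumors, 698 CPM in oral WT replicate 4, 23.9 to 40.5 CPM in the other oral WT tumors and 18.0 to 25.1 CPM in the pancreatic tumors. All 20 muscle genes were above 3 counts in both oral KO tumors, and 12 to 19 of them in the oral WT tumors. Summed levels of 10 pancreatic acinar genes were 274 CPM in pancreatic KO replicate 3, 4.04 to 14.3 CPM in the other pancreatic tumors and 0.702 to 1.39 CPM in the oral tumors. The part of these differences between tumors in the results below was not tested, except where a value without the tumor is given.

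The 8 genes lie in the keratin clusters, the type II genes on chromosome 15 and the type I genes on chromosome 11 of GRCm38, all on the minus strand. Krt4 (ENSMUSG00000059668) spans chr15:101918535-101924735 and Krt13 (ENSMUSG00000044041) chr11:100117327-100121566. Krt1 (ENSMUSG00000046834) spans chr15:101845426-101850794 and Krt10 (ENSMUSG00000019761) chr11:99385254-99389364. Krt2 (ENSMUSG00000064201) spans chr15:101810689-101818169, Krt76 (ENSMUSG00000075402) chr15:101884351-101892920, Krt78 (ENSMUSG00000050463) chr15:101946001-101954287 and Krt24 (ENSMUSG00000020913) chr11:99279959-99285262. Between 0% and 3.24% of the 31-base words in their transcripts occurred in other genes, most in Krt76, against 12.8% for Krt5 and 28.2% for Krt14. Krt10 overlaps the antisense gene Gm11940 and Krt76 the microRNA gene Gm44356, both on the plus strand, and the reads were assigned with strand.

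The promoters of 6 members are in the RefSeq table (GRCm38.p6), and those of Krt4 and Krt1 are not. The 60 bases upstream of the start site are shown for the 6 because each holds a TATA-like word at nearly the same distance, marked in capitals. They are written 5′ to 3′ on the minus strand.
Krt13, chr11:100121567-100121626: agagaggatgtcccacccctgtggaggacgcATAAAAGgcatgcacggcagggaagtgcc
Krt78, chr15:101954288-101954347: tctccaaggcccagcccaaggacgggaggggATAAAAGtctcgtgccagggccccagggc
Krt10, chr11:99389365-99389424: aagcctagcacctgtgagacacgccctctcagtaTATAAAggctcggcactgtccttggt
Krt76, chr15:101892921-101892980: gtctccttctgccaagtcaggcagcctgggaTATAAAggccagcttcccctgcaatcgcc
Krt2, chr15:101818170-101818229: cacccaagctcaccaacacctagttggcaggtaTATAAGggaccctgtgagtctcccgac
Krt24, chr11:99285263-99285322: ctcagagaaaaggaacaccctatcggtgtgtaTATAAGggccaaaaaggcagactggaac
The first base of the word lay 26 to 29 bases before the start in all 6. TATAAA occurred, on either strand, in 13.6% of the 32851 mouse promoter windows of 300 bases around the start, TATAAG in 7.43% and ATAAAAG in 5.42%. The letters of TATAAG and ATAAAAG were chosen after these windows had been read. The SOX core words ACAATG and ACAAAG, searched on both strands, occurred in 12.6% and 18.7% of the windows and in none of the 6 member windows with a TATA-like word. Krt13 has a second annotated start, whose window held none of the 5 words.

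Levels between genes were compared as CPM per kb of transcript. In pancreatic WT tumors, Krt4 (1055 CPM per kb) and Krt13 (1008 CPM per kb) stood far above the other members, followed by Krt10 (93.3) and Krt1 (58.0), then Krt78 (6.17) and Krt76 (4.12), with Krt2 (0.0579) and Krt24 (0 counts) last. Krt4 and Krt13 did not differ beyond their spread in that group, and their lowest tumor values, 667 and 534 CPM per kb, were above the highest of every other member there. In oral WT tumors the means were 216 CPM per kb for Krt13, 204 for Krt1, 173 for Krt10 and 144 for Krt4. Their tumor values overlapped. Replicate 4 was the highest for Krt1 (707 CPM per kb) and Krt10 (445) and raised these means. The medians were 167 for Krt13, 128 for Krt4, 108 for Krt10 and 48.0 for Krt1. Krt76 had a mean of 85.1 (median 90.7), Krt2 of 8.75 (2.99), Krt78 of 2.48 (0.704) and Krt24 of 1.70 (1.80) CPM per kb.
In oral KO tumors the means were 583 CPM per kb for Krt13, 569 for Krt4, 533 for Krt10 and 258 for Krt1. In replicates 1 and 2, Krt13 was at 599 and 567 and Krt4 at 665 and 473 CPM per kb. Krt10 was at 1019 and 47.3 and Krt1 at 491 and 24.6, so that both were high in replicate 1 alone. In pancreatic KO tumors Krt4 (83.4 to 102 CPM per kb) and Krt13 (57.4 to 115) led and overlapped each other, above Krt1 (9.07 to 48.0). Krt10 (7.60 to 58.7) overlapped Krt13 and not Krt4.

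**Figure D1:**
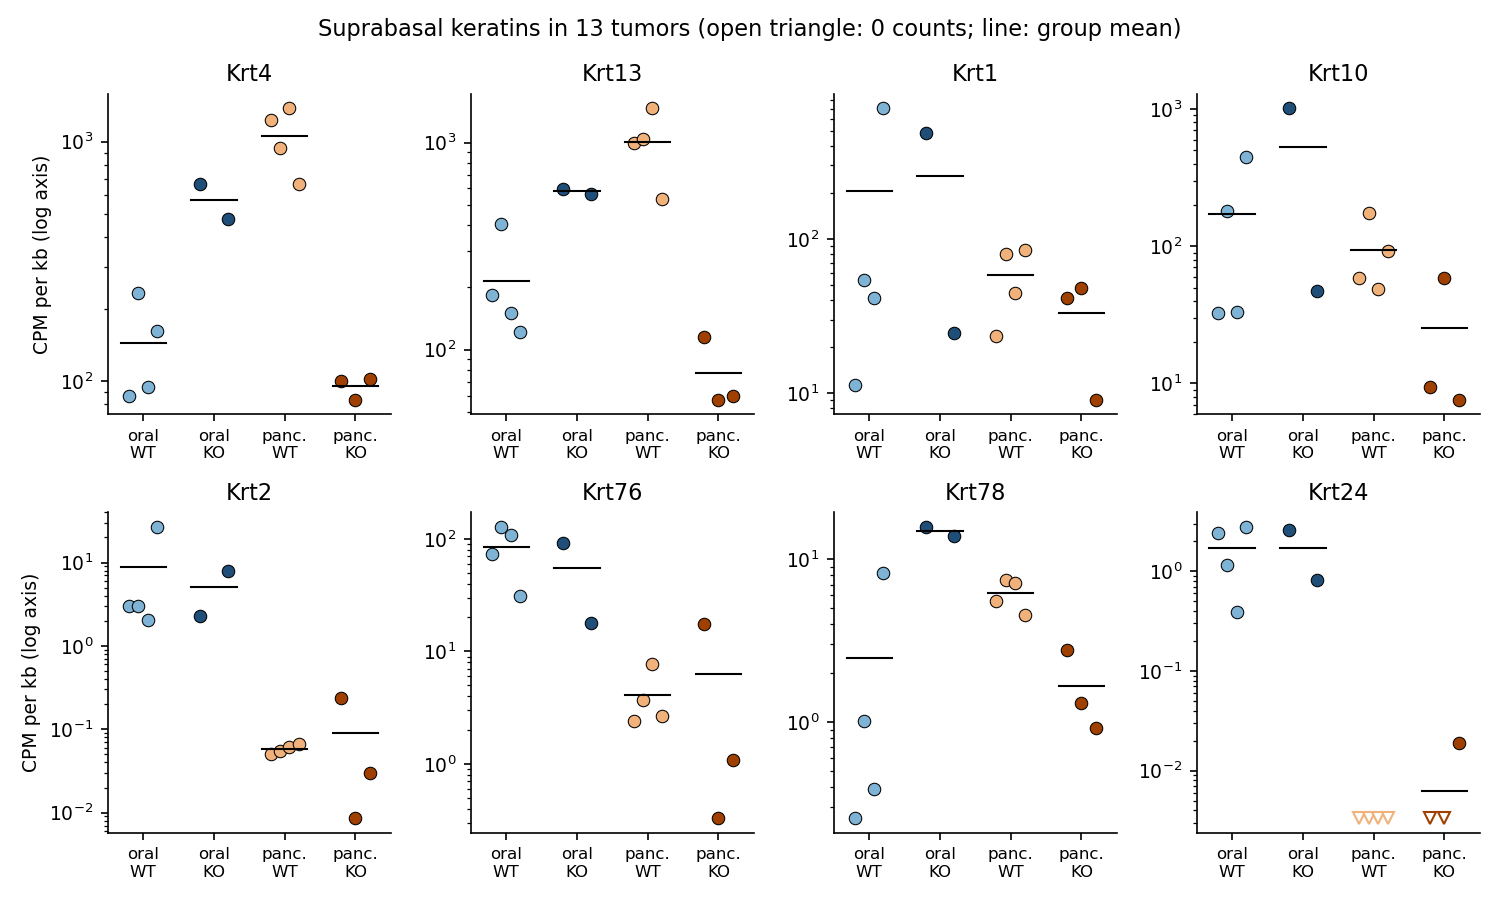
Level of each of the 8 suprabasal keratins in CPM per kb of transcript (vertical log axis, scaled per gene) in the 13 tumors, grouped by tissue and Sox2 genotype along the horizontal axis. Points are tumors, lines are group means and open triangles are tumors with 0 counts. Krt4 and Krt13 are low in oral WT and pancreatic KO and high in oral KO and pancreatic WT tumors, and Krt2, Krt76 and Krt24 are higher in the oral WT than in the pancreatic WT tumors.

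The mucosal pair, Krt4 and Krt13, fell in the pancreatic KO tumors. Krt4, the type II partner, was at 2618, 2010, 2947 and 1424 CPM in the 4 pancreatic WT tumors and at 213, 178 and 217 CPM in the 3 KO tumors. The groups did not overlap, and the lowest WT tumor was far above all KO tumors. The log2 fold change of KO over WT was -3.46 (SE 0.28, 95% interval -4.10 to -2.82, edgeR adjusted p = 0.00256), an 11.0-fold lower level.
Krt13, its type I partner, was at 1642, 1720, 2425 and 884 CPM in the pancreatic WT tumors and at 191, 94.9 and 99.3 CPM in the KO tumors. These groups did not overlap either. Its log2 fold change was -3.69 (SE 0.43, 95% interval -4.68 to -2.70, edgeR adjusted p = 0.0163), a 12.9-fold lower level.
Of the 6 members that passed the filter in the pancreas, Krt4 and Krt13 passed the test, both lower, whereas 0.292% of the 24653 genes tested were called lower and 0.337% higher. Krt2 and Krt24 did not pass the filter of 10 counts in 2 tumors. Krt4 passed in every alternative fit. The call for Krt13 was lost without pancreatic WT replicate 1 (adjusted p = 0.0567), KO replicate 2 (0.0747) or KO replicate 3 (0.0690), with its fold change at -3.71, -3.51 and -3.54, and with protein-coding genes alone (-3.69, 0.0586). In bulk tissue, fewer suprabasal cells and less keratin RNA per cell cannot be told apart.

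In oral tumors Krt4 was higher in the KO than in the WT tumors. It was at 184, 496, 201 and 344 CPM in the 4 oral WT tumors and at 1419 and 1009 CPM in the 2 KO tumors, which lay above all WT tumors. The log2 fold change was 2.08 (SE 0.41, 95% interval 1.12 to 3.04, edgeR adjusted p = 0.0268), a 4.22-fold higher level.
Krt13 was at 304, 671, 249 and 202 CPM in the oral WT tumors and at 990 and 938 CPM in the KO tumors, again without overlap. Its log2 fold change of 1.52 (SE 0.45, 95% interval 0.45 to 2.59) did not pass (edgeR adjusted p = 0.0643).
All 8 members were tested in the oral tumors and Krt4 alone passed, higher. That is 12.5% of the members, near the 8.81% of the 22342 genes tested that were called higher, with 2.89% called lower. The call for Krt4 held without oral WT replicate 4 (log2 fold change 2.15, adjusted p = 0.0349). It was lost without WT replicate 1 (1.91, adjusted p = 0.0562), WT replicate 2 (2.40, 0.0659), WT replicate 3 (1.93, 0.0566), KO replicate 1 (1.78, 0.106) or KO replicate 2 (2.33, 0.0883), and without the 2 tumors that stood apart, WT replicate 4 and KO replicate 1 (1.83, 0.114). It was also lost with protein-coding genes alone (2.26, 0.0644) and with the tumor number as a block (2.08, 0.172), so that 8 of 14 alternatives ended the call. The skeletal muscle genes moved with the same contrast, with a positive log2 fold change for 20 of 20 (median 3.99, against -0.0030 over all genes tested) and calls for Myh4, Ryr1 and Pvalb, named after their values were seen.

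The KO minus WT difference of Krt4 and Krt13 differed between the tissues when tested directly, in 1 fit of all 13 tumors. The interaction, the pancreatic minus the oral log2 fold change, was -5.46 for Krt4 (SE 0.53, edgeR adjusted p = 0.000462) and -5.14 for Krt13 (SE 0.67, adjusted p = 0.00374). Both passed in every alternative fit, from -5.79 to -5.14 for Krt4 and from -5.64 to -4.86 for Krt13. They were the 2 of 8 members called, both lower, beside 7.41% of the 25836 genes tested called lower and 4.85% called higher. Krt78 had an interaction of -4.48 (adjusted p = 0.0537), Krt10 of -3.51 (0.168) and Krt1 of -1.16 (0.693), none of which passed. Without oral WT replicate 4 that of Krt78 was -6.65 (adjusted p = 0.00169) and passed. For Krt2, Krt76 and Krt24 the interactions of 1.42, 1.25 and 2.62 had adjusted p of 0.576, 0.613 and 0.432, and the pancreatic counts behind those of Krt2 and Krt24 were near 0.

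**Figure D2:**
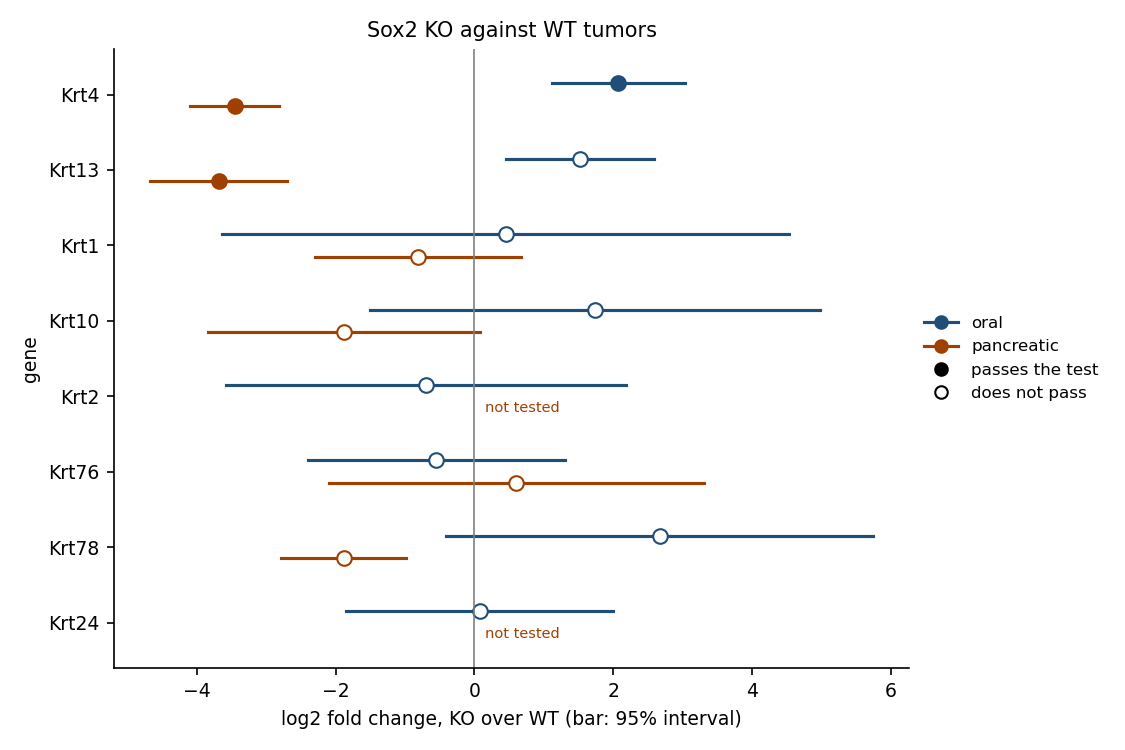
Log2 fold change of Sox2 KO over WT tumors (horizontal axis) for each keratin, in oral and pancreatic tumors, with the 95% interval as a bar. Filled points passed the test: Krt4 at 2.08 in oral tumors, and Krt4 at -3.46 and Krt13 at -3.69 in pancreatic tumors; Krt2 and Krt24 were not tested in the pancreas.

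The epidermal pair, Krt1 and Krt10, did not pass the test between genotypes in either tissue and differed widely between tumors of a group. Krt1, the type II keratin of the spinous layer, was at 27.7, 134, 102 and 1736 CPM in oral WT and at 1205 and 60.5 CPM in oral KO tumors. The KO tumors lay on either side of WT replicates 2 and 3, and WT replicate 4 exceeded all. Its oral log2 fold change was 0.45 (SE 1.71, 95% interval -3.64 to 4.54, edgeR adjusted p = 0.873).
Krt10, its type I partner, was at 68.1, 381, 69.5 and 931 CPM in oral WT and at 2135 and 99.0 CPM in oral KO tumors. Oral KO replicate 1 was again the high KO tumor and WT replicate 4 the high WT tumor. The oral log2 fold change was 1.74 (SE 1.35, 95% interval -1.50 to 4.98, edgeR adjusted p = 0.391). Without these 2 tumors the values were -0.49 for Krt1 and -0.75 for Krt10, and without KO replicate 1 alone they were -2.99 and -1.82. Without WT replicate 4 alone they were 2.97 and 2.83. None of these passed.
In pancreatic tumors Krt1 was at 57.5, 195, 109 and 208 CPM in WT and at 102, 118 and 22.3 CPM in KO tumors, which overlapped. Krt10 was at 122, 365, 103 and 192 CPM in WT and at 19.7, 123 and 15.9 CPM in KO tumors, where KO replicate 2 lay within the WT range. The pancreatic log2 fold changes were -0.81 for Krt1 (95% interval -2.29 to 0.67, edgeR adjusted p = 0.584) and -1.88 for Krt10 (-3.84 to 0.08, adjusted p = 0.333). Differences in either direction of several fold therefore lie within the intervals of Krt1 and Krt10 in oral tumors.

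Krt2, the type II keratin of late epidermal layers, was at 7.79, 7.85, 5.32 and 70.5 CPM in oral WT and at 5.95 and 20.8 CPM in oral KO tumors. WT replicate 4 was the highest, KO replicate 2 came next, and KO replicate 1 lay within the range of the other WT tumors. The log2 fold change of -0.70 (SE 1.20, edgeR adjusted p = 0.709) became 1.02 without WT replicate 4 (adjusted p = 0.182).
Krt76, the palate and oral type II keratin, was at 168, 297, 251 and 71.1 CPM in oral WT and at 211 and 41.0 CPM in oral KO tumors, which overlapped (log2 fold change -0.55, SE 0.77, adjusted p = 0.643). The tumor lowest for Krt76 among the WT tumors was the one highest for Krt1, Krt10 and Krt2. In the pancreas Krt76 was at 5.61, 8.52, 17.8 and 6.18 CPM in WT and at 40.04, 0.762 and 2.53 CPM in KO tumors. KO replicate 1 lay above all WT tumors and the other KO tumors below them. The log2 fold change of 0.61 (SE 1.16, edgeR adjusted p = 0.845) became -2.50 without KO replicate 1 (adjusted p = 0.193).
Krt78 was at 0.882, 3.51, 1.33 and 28.3 CPM in oral WT and at 54.7 and 47.8 CPM in oral KO tumors. The KO tumors lay above all WT tumors, among which replicate 4 stood apart. The log2 fold change of 2.67 (SE 1.29, edgeR adjusted p = 0.187) did not pass, and without WT replicate 4 it was 4.85 (adjusted p = 0.0128) and passed. In the pancreas Krt78 was at 18.9, 25.8, 24.5 and 15.6 CPM in WT and at 9.49, 4.52 and 3.15 CPM in KO tumors, without overlap. The log2 fold change of -1.88 (SE 0.39, edgeR adjusted p = 0.0783) did not pass, and without KO replicate 1 it was -2.44 (adjusted p = 0.0366) and passed. In all, Krt78 was called lower there in 3 of 14 alternative fits, not all of which left out a tumor.
Krt24 was at 4.52, 2.12, 0.728 and 5.19 CPM in oral WT and at 4.76 and 1.52 CPM in oral KO tumors, from 23 to 226 counts (log2 fold change 0.07, SE 0.82, adjusted p = 0.959). It had 0 counts in all 4 pancreatic WT tumors and 0, 0 and 4 counts in the pancreatic KO tumors.

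Between tissues, the WT tumors differed in their levels of suprabasal keratins. Krt4 and Krt13 were lower in oral than in pancreatic WT tumors, by log2 fold changes of -2.88 (SE 0.38, edgeR adjusted p = 0.00165) and -2.23 (SE 0.44, adjusted p = 0.00843), 7.34-fold and 4.68-fold lower levels. No oral WT tumor reached the lowest pancreatic WT tumor for either gene. Krt5 was lower in oral WT tumors too (-1.10, edgeR adjusted p = 0.00913). The summed fibroblast genes were at 9840 to 20324 CPM there and at 1517 to 2880 CPM in pancreatic WT tumors. Summed per kb over Krt5 and Krt14, Krt4 with Krt13 overlapped, at 0.0928 to 0.428 in oral and 0.220 to 0.767 in pancreatic WT tumors. The part of tumor make-up in these differences was not tested. Krt2, Krt76 and Krt24 were higher in oral WT tumors. Krt76 differed by 4.37 (SE 0.56, adjusted p = 0.00162), a 20.6-fold higher level, and Krt2 by 7.21 (SE 1.08, adjusted p = 0.00288) over pancreatic WT tumors that had 5 to 7 counts. Without oral WT replicate 4 the value for Krt2 was 5.50, and it still passed. Krt24 was at least 41.1-fold higher, with the pancreatic WT tumors set at 3 counts per library, and passed (adjusted p = 0.00386).
These are 3 of 8 members called higher and 2 called lower in oral WT tumors, beside 9.30% and 7.24% of the 23164 genes tested. Krt1 (1.82, adjusted p = 0.285), Krt10 (0.90, 0.482) and Krt78 (-1.31, 0.372) did not pass. Without oral WT replicate 4, Krt1 and Krt10 were at -0.69 and -0.17, and Krt78 was at -3.48 (adjusted p = 0.00215) and passed.

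In the KO tumors the order of the tissues for Krt4 and Krt13 was turned. Krt4 was higher in oral than in pancreatic KO tumors by a log2 fold change of 2.53 (SE 0.23, edgeR adjusted p = 0.00482), and Krt13 by 2.86 (SE 0.34, adjusted p = 0.00688), 5.77-fold and 7.25-fold higher levels. Krt78 was higher by 3.11 (SE 0.47, adjusted p = 0.00983). Krt2 differed by 5.74 (SE 1.31, adjusted p = 0.0247), with 60 and 533 counts in the oral and 70, 2 and 9 counts in the pancreatic KO tumors, and without oral KO replicate 2 it was at 4.61 and no longer passed (adjusted p = 0.0898), nor without pancreatic KO replicate 3 (5.34, adjusted p = 0.0562), without a count filter (5.67, 0.0713) or with the tumor number as a block (5.81, 0.241). Krt24, with 48 and 39 counts against 0, 0 and 4, also passed (adjusted p = 0.00973), and a fold is not given because of the low pancreatic counts, and without either oral KO tumor it was not tested, being below the count filter.
These were 5 of 8 members called higher, with all 8 fold changes positive, beside 14.6% and 10.7% of the 24787 genes tested. For Krt1 (2.93, adjusted p = 0.107), Krt10 (4.36, 0.0637) and Krt76 (3.09, 0.176) the difference did not pass. Without oral KO replicate 2, Krt1 was at 3.88 and Krt10 at 5.32, whereas without oral KO replicate 1 Krt1 was at -0.42 and Krt10 at 0.90. Krt10 was called in 4 of 12 alternative fits, not all of which left out a tumor. Krt76 was at 6.27 (adjusted p = 0.0334) and passed without pancreatic KO replicate 1. The comparisons between tissues share their tumors with those between genotypes.

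**Figure D3:**
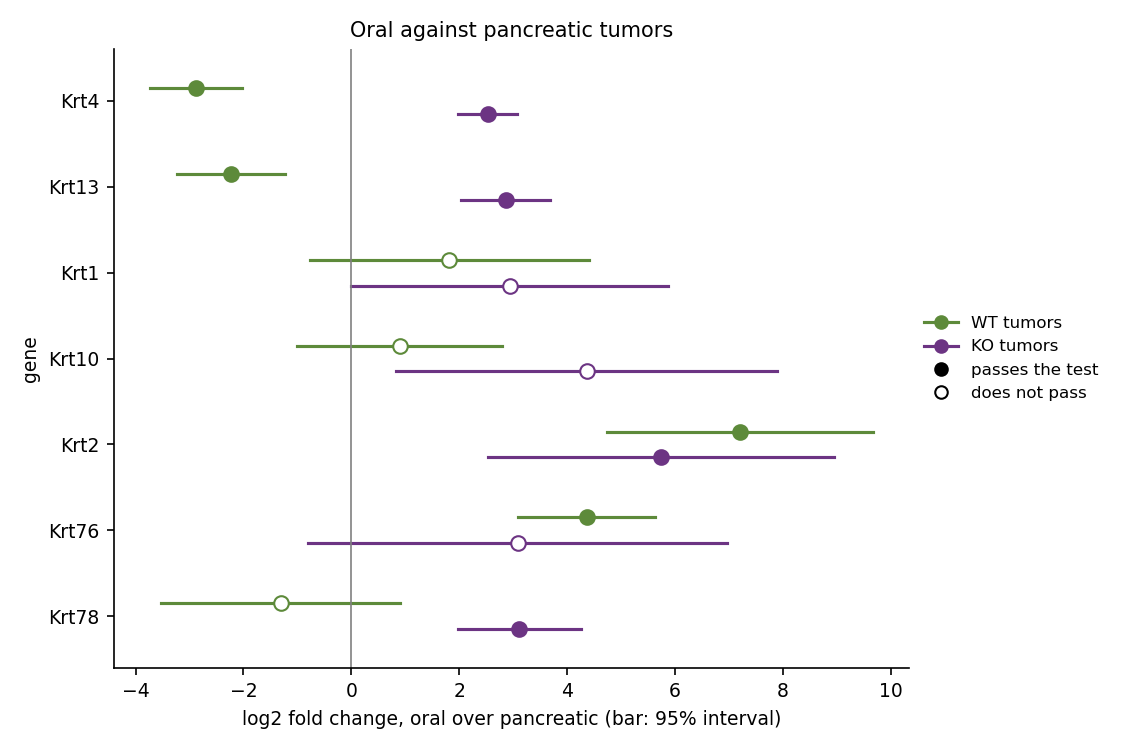
Log2 fold change of oral over pancreatic tumors (horizontal axis) for 7 of the 8 keratins, among WT and among KO tumors, with the 95% interval as a bar and filled points for those that passed the test. Krt4 and Krt13 lie at -2.88 and -2.23 among WT and at 2.53 and 2.86 among KO tumors; Krt24 is left out because pancreatic tumors had 0 to 4 counts.

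The shift in Krt4 and Krt13 was also seen against the basal keratins of the same library, a ratio that does not depend on library size. The summed level per kb of Krt4 and Krt13 over that of Krt5 and Krt14 was 0.0928, 0.428, 0.174 and 0.129 in oral WT and 0.739 and 1.04 in oral KO tumors. It was 0.767, 0.350, 0.692 and 0.220 in pancreatic WT and 0.0410, 0.0273 and 0.0356 in pancreatic KO tumors. Neither tissue's genotypes overlapped.
For Krt1 and Krt10 over Krt5 and Krt14 the ratio ran from 0.0151 to 0.522 in oral WT tumors and was 0.883 and 0.0717 in oral KO tumors, which overlapped. It ran from 0.0228 to 0.0449 in pancreatic WT tumors and from 0.00366 to 0.0207 in pancreatic KO tumors, which did not.
The basal keratins themselves did not pass the test between genotypes. For Krt5 the log2 fold change was -1.04 in oral (SE 0.29, edgeR adjusted p = 0.0537) and 0.22 in pancreatic tumors (SE 0.21, adjusted p = 0.659), and for Krt14 it was 0.09 and 0.04 (adjusted p = 0.927 and 0.970). The interaction of Krt5 was 1.33 (SE 0.33, adjusted p = 0.0234) and passed, so that in the oral tumors the lower Krt5 values enter the ratio as well. Among the 7 basal and stress keratins Krt15 was called in oral tumors, where it fell by 3.11 on the log2 scale (adjusted p = 0.0398), and was named after its value was seen. In pancreatic tumors edgeR called 0 of the 7, with 3 at an unadjusted p under 0.05, and the DESeq2 Wald test called 1.

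**Figure D4:**
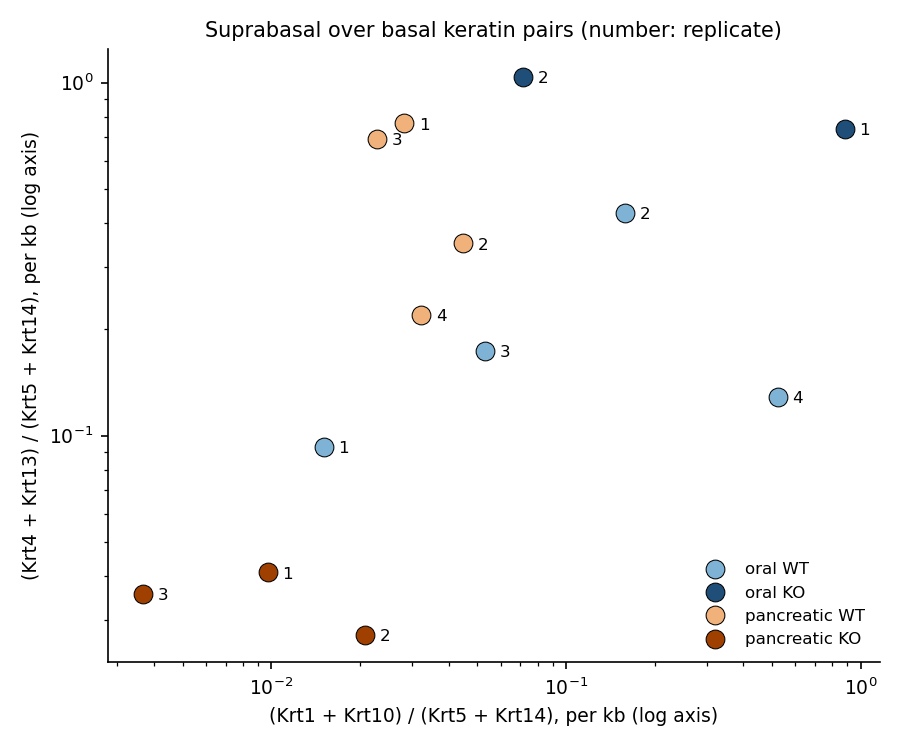
Summed level per kb of Krt4 and Krt13 (vertical log axis) and of Krt1 and Krt10 (horizontal log axis), each over that of Krt5 and Krt14, for the 13 tumors, with the replicate number beside each point. Pancreatic KO tumors lie lowest on the vertical axis (0.0273 to 0.0410), and oral WT replicate 4 and oral KO replicate 1 lie farthest right (0.522 and 0.883).

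Together the 8 members made up 7.33%, 24.7%, 15.6% and 19.3% of all keratin counts in oral WT tumors and 35.9% and 29.6% in oral KO tumors. The oral KO tumors lay above all oral WT tumors. In pancreatic tumors the shares were 24.1%, 16.0%, 26.2% and 12.3% in WT and 2.98%, 2.82% and 2.39% in KO tumors, again apart. All keratins held 1.64% to 2.34% of all counts in pancreatic WT and 1.59% to 1.84% in pancreatic KO tumors, ranges that overlapped.
The make-up of the share differed between tumors of a group. In oral WT replicate 4, Krt1 held 9.90% of the keratin counts and Krt4 with Krt13 3.12%, whereas in oral WT replicate 2 Krt1 held 1.66% and Krt4 with Krt13 14.5%. In oral KO replicate 1, Krt10 held 12.7% and Krt1 7.19%, against 1.32% and 0.806% in oral KO replicate 2. Type II over type I level per kb, summed over the members, stayed between 0.712 and 1.67 in the 13 tumors. The log2 ratio of Krt4 to Krt13 per kb ran from -1.09 to 0.76 and that of Krt1 to Krt10 from -1.74 to 2.15.

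**Figure D5:**
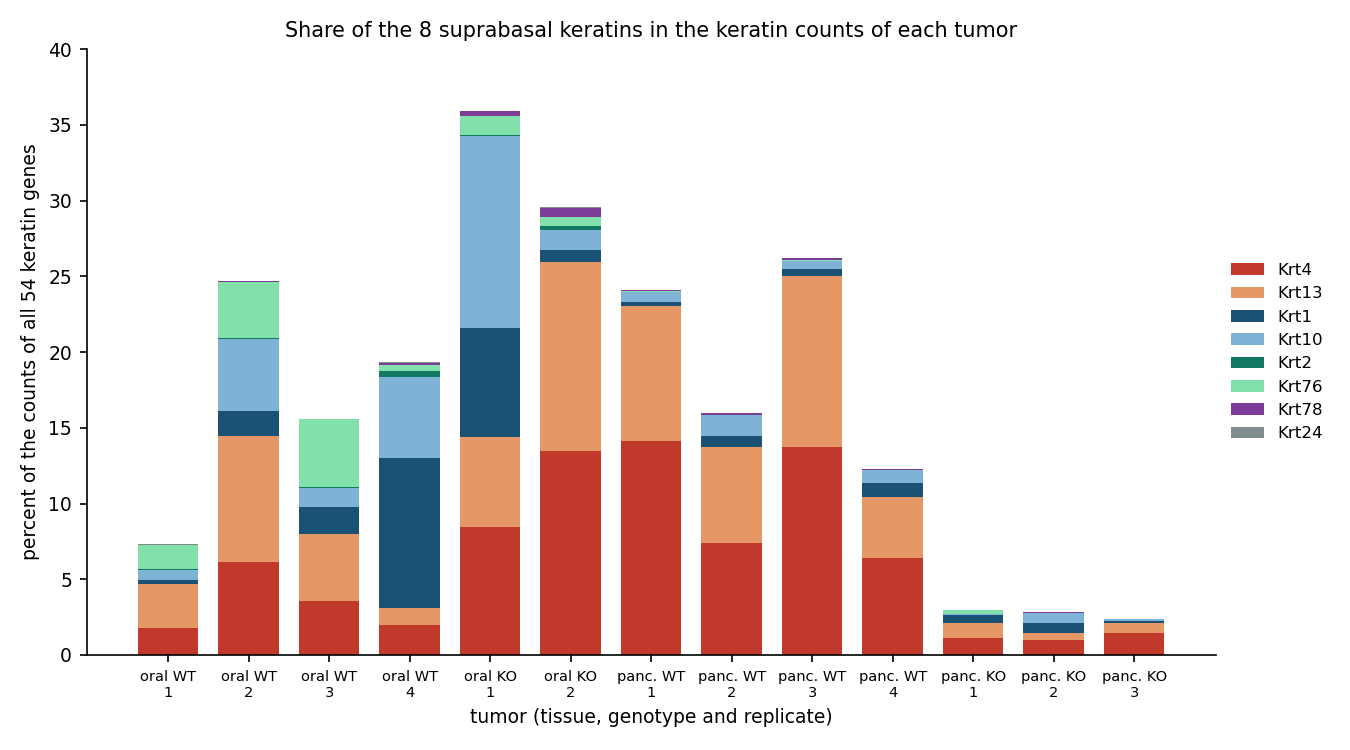
Percent of the counts of all 54 keratin genes held by each of the 8 suprabasal keratins (stacked bars) in each of the 13 tumors. The bars reach 12.3% to 26.2% in pancreatic WT tumors and 2.39% to 2.98% in pancreatic KO tumors, and Krt1 and Krt10 fill most of the bar in oral WT replicate 4 and oral KO replicate 1.

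Other genes of suprabasal differentiation were followed as lists. The cornified envelope list holds 30 genes for the proteins and enzymes of the cross-linked shell of terminally differentiated keratinocytes, and all 30 were tested. In pancreatic tumors 30 of 30 had a negative log2 fold change in KO tumors (median -2.27, against 0.02 over all genes tested), and 1 was called, Scel (sciellin, an envelope precursor), which fell by 1.90 on the log2 scale (SE 0.28, edgeR adjusted p = 0.0370). That is 3.33% of the list beside the 0.292% of all genes called lower. At an unadjusted p under 0.05 there were 23 of the 30, and the DESeq2 Wald test called 21 lower, where it called 1111 of all 24653 genes in either direction. The genes of the list are differentiation genes that often move together, and the direction of 30 genes is not 30 observations.
In oral tumors the list was split, with 15 positive and 15 negative log2 fold changes (median 0.10). EdgeR and the DESeq2 Wald test each called 0 of the 30, with 1 at an unadjusted p under 0.05 in edgeR, and without oral WT replicate 4 edgeR called 4 higher and 1 lower (median 1.46). The interaction called 7 of the 30 lower, 23.3% beside 7.41% of all genes: the envelope proteins Lor, Rptn, Sprr3, Cnfn, Crct1 and Lce3a and the plakin Evpl, from -2.53 for Evpl to -9.05 for Lce3a. It called 17 lower without oral WT replicate 4 and 0 without oral KO replicate 1, where 9 had an unadjusted p under 0.05. Leaving out any other tumor gave 2 to 8 calls, 2 of them without pancreatic KO replicate 3 and 3 without oral WT replicate 2, pancreatic WT replicate 1 or 3 or pancreatic KO replicate 2. Between oral and pancreatic KO tumors 14 of the 30 were called higher in oral tumors, such as Lor and Tgm3, and 1 lower, Ivl (involucrin), 46.7% and 3.33% of the list beside 14.6% and 10.7% of all genes. Between the WT tumors 2 were called higher, the desmosomal cadherins Dsg1a and Dsc1, and 3 lower, Sprr3, Evpl and Ppl, counts near the background of 9.30% of all genes called higher and 7.24% called lower.
Of 23 transcription factors and Notch pathway genes of suprabasal cells, edgeR called 0 between genotypes in either tissue, with medians of -0.22 in oral and -0.48 in pancreatic tumors. At an unadjusted p under 0.05 there were 0 in oral and 9 in pancreatic tumors, and the DESeq2 Wald test called 1 and 4, all lower. The 10 basal keratinocyte genes, among them Trp63 and the hemidesmosome integrins, also had 0 called in both, by edgeR and by the DESeq2 Wald test, with 1 and 0 at an unadjusted p under 0.05 and medians of -0.11 and 0.16. Their summed level was 3903 to 6757 CPM in pancreatic WT and 5167 to 6576 CPM in pancreatic KO tumors, which overlapped.
The 4 simple epithelial keratins Krt7, Krt8, Krt18 and Krt19, which the pancreatic duct makes, were all called lower in oral than in pancreatic WT tumors, beside 7.24% of all genes, and 0 were called between genotypes by edgeR or the DESeq2 Wald test, with 1 at an unadjusted p under 0.05 in oral and 0 in pancreatic tumors. Beside the pancreatic comparison, the summed level of 10 fibroblast genes was 1517 to 2880 CPM in WT and 2807 to 5432 CPM in KO tumors, and that of 10 endothelial genes 114 to 166 and 148 to 212 CPM. Their part in the pancreatic results was not tested.

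Across the 13 tumors, Krt4 and Krt13 followed each other more closely than any other pair of the 4 main members. Likeness was measured as the root mean square difference of log2 CPM after centring each gene on its mean, where 0 is an identical pattern, and the tumors share their depth and composition between genes. The difference was 0.528 between Krt4 and Krt13, whose own spreads were 1.52 and 1.53, 1.03 between Krt1 and Krt10, and 1.87 to 2.14 between the mucosal and the epidermal pair. Krt78 was at 1.26 from Krt4 and 1.67 from Krt1.
Among 17454 protein-coding genes outside the 8, the closest to Krt4 were Vsig10l (0.722), Fgd3 (0.741) and 2310007B03Rik (0.773), and to Krt13 Snx31 (0.865), Cfap43 (0.892) and Fgd3 (0.911). Vsig10l ranged from 35.6 to 141 CPM in pancreatic WT and from 5.52 to 10.8 CPM in pancreatic KO tumors, and from 8.04 to 61.2 CPM in oral WT and from 29.6 to 58.2 CPM in oral KO tumors.
The closest to Krt1 were Gp1bb (0.754), the neutrophil and keratinocyte gene S100a9 (0.758) and Flg (0.855), the filaggrin gene of the granular layer. Those closest to Krt10 were Il1f5 (0.756), Slpi (0.912) and C130079G13Rik (0.921). Flg reached 862 CPM in an oral WT tumor and 153 CPM in an oral KO tumor, from lows of 9.57 and 27.6 CPM.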

How the data were processed

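RNA from 13 tumors was depleted of ribosomal RNA and sequenced with strand. The authors trimmed the reads (Trim Galore 0.6.10, FastQC 0.12.1), quantified them with kallisto 0.50.0 on GENCODE M23 transcripts and added them up by gene (tximport), and the deposited values are estimated counts (expected counts) without normalization, of which 27.3% are not whole. Of 56085 genes, 55332 had values. Symbols and positions came from GENCODE M21 (GRCm38), which held 55141 of these identifiers.

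The rounded counts were tested with edgeR 4.0.16 in R 4.3.3 (TMM, robust quasi-likelihood, Benjamini-Hochberg over all genes) within each tissue, within each genotype, and for the interaction in all 13 tumors, over genes that reached 10 counts in 2 or more tumors of the fit. A call needs an adjusted p below 0.05 with a log2 fold change beyond 1 in size. The SE is the fold change over the root of F. Levels are CPM with TMM factors, and per kb of the longest protein-coding transcript. Limits from 3 counts cover counting error only. The fits were tested on simulated data, with changes planted in well-counted genes and no distant tumor. That check does not cover the distant tumors or the genes with low counts here.

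The members and lists were chosen with earlier results of these data known. Named genes are the 8 members, Krt5 and Krt14, Sox2 and cornified envelope genes called between genotypes. The 3 protein-coding genes with the closest pattern to Krt4, Krt13, Krt1 and Krt10 are named too. The other cornified envelope genes named were called in the interaction or between tissues and fall outside this rule. Alternatives were DESeq2 1.42.0 size factors, no count filter, the DESeq2 Wald test without and with apeglm 1.24.0, 1 fit of all tumors, tumor number as a block, protein-coding genes alone and leaving out each tumor. Leaving out oral WT replicate 4 with oral KO replicate 1 was added after the data were seen.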

Additional observations from a re-analysis of the deposited data

Results flagged for a closer look

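Oral WT replicate 4 lay far from the other 3 oral WT tumors for 3 keratins, by the share of the group's range that its gap to the next tumor took (Dixon's criterion). Krt1 was at 1736 CPM there against 27.7 to 134 CPM in the others (gap share 0.938), Krt2 at 70.5 CPM against 5.32 to 7.85 CPM (0.961) and Krt78 at 28.3 CPM against 0.882 to 3.51 CPM (0.904). These were 3 of 15 groups of tumors and genes tested, all 3 in the same tumor. Chance marks about 1 group in 20 where values are normally distributed. That was not checked for these CPM, which were not put on a log scale. The groups share their tumors and are not independent. The same tumor had 698 CPM of summed skeletal muscle genes, against 23.9 to 40.5 CPM in the other oral WT tumors, and 88.5% of its counts in protein-coding genes, against 88.8% to 90.0%.

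The KO minus WT difference was of opposite sign in the tissues for Krt4 and Krt13, and the difference between tissues itself passed edgeR's test. It was -5.46 for Krt4 (adjusted p = 0.000462) and -5.14 for Krt13 (adjusted p = 0.00374) on the log2 scale, pancreatic minus oral. Both oral KO tumors (n = 2) lay above every oral WT tumor, and every pancreatic KO tumor below every pancreatic WT tumor. The interaction does not test the sign within a tissue. In oral tumors alone Krt13 did not pass edgeR's test (adjusted p = 0.0643), and the call for Krt4 was lost in 8 of 14 alternatives.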

How the results depend on the processing

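Of the 5 counts of members called, those between tissues and of the interaction stayed within 1.5 times of the main count in every alternative. In oral tumors the count of 1 became 2 with the DESeq2 Wald test, with apeglm and in 1 fit of all 13 tumors (Krt4 and Krt13), 0 with protein-coding genes alone (27 genes called in all, against 2614), 0 without oral WT replicate 4 and KO replicate 1, and 0 to 2 when each tumor was left out. In pancreatic tumors the count of 2 became 1 with protein-coding genes alone (10 genes called in all, against 155) and 1 to 3 when each tumor was left out. Krt78 joined the pancreatic calls in 3 of 14 alternatives, not all of which left out a tumor. Over all genes the DESeq2 Wald test called 4005 in oral and 1111 in pancreatic tumors.

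The labels do not say whether same-numbered tumors are paired. Same-numbered WT and KO tumors of a tissue correlated at -0.08 to 0.317 in their deviations from the group means, above 0.1 in 1 of 5 pairs. So few pairs from small groups cannot decide whether the tumors were paired. With the tumor number as a replicate block, 0 members were called in oral tumors (65 genes in all) and 3 in pancreatic tumors (590 genes in all, with Krt10 added), Krt2 reversed to 0.63 and Krt24 to -0.10 in oral tumors, Krt76 to -1.62 in pancreatic tumors, and Krt78 joined the interaction calls (-5.83).

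Other reversals concerned values that did not pass in either fit. For Krt24 in oral tumors the value was -0.041 without a count filter, -0.030 in 1 fit of all tumors and -0.65 without oral WT replicate 4 and KO replicate 1. Without those 2 tumors Krt1 was at -0.49, Krt10 at -0.75 and Krt2 at 1.62 in oral tumors, and the interaction of Krt2 at -0.87. When each tumor, or those 2 together, was left out, the oral KO minus WT value ran from -2.99 to 2.97 for Krt1, -1.82 to 2.83 for Krt10, -1.83 to 1.62 for Krt2, -2.49 to 0.22 for Krt76 and -0.99 to 0.71 for Krt24. The pancreatic value ran from -2.50 to 1.17 for Krt76. The oral minus pancreatic value ran from -0.69 to 2.22 for Krt1 and -0.17 to 1.39 for Krt10 in WT, and from -0.42 to 3.88 for Krt1 in KO tumors. The interaction ran from -3.67 to 2.27 for Krt1, -5.08 to 0.027 for Krt10, -0.87 to 2.60 for Krt2 and -1.89 to 3.19 for Krt76. The cause of these changes beyond the tumors or genes left out was not tested.

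Where an oral KO tumor was left out, the remaining one was assumed to vary like the WT tumors. DESeq2 gave no adjusted p for some members with a distant tumor, which were left out of these comparisons. Low counts limit Krt2 and Krt24 in pancreatic tumors, at 0 to 70 counts in the libraries with the highest totals.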
